A study of Mus musculus with 14 samples.

Results

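The protein genes of the mitochondrial ribosome were followed across both media and both genotypes. Members were all gene symbols that begin with Mrpl or Mrps and a digit and that had 10 or more counts in at least 3 libraries. The rule took 78 of the 25239 symbols in the table, and 13482 symbols of any kind passed the same count rule. Of the 78, 49 carry an Mrpl symbol and 29 an Mrps symbol, and no matching symbol was lost to the count rule. The symbols do not fully follow the structure: Mrps30 and Mrps18a belong to the large subunit, which gives 51 large and 26 small subunit genes. The remaining member, Mrps36, is also known as a component of the 2-oxoglutarate dehydrogenase complex and was counted in neither subunit.

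The mitochondrial ribosome translates the messages of the mitochondrial genome, which encode membrane subunits of the respiratory chain and the ATP synthase. Its ribosomal RNAs come from the mitochondrial genome, whereas all its proteins are encoded in the nucleus, made in the cytosol and imported. Many of these proteins descend from bacterial ribosomal proteins, and others exist only in mitochondria. In macrophages, respiratory activity is known to differ between activation states. Transcripts of the mitochondrial genome were not analysed here.

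The cells were mouse bone marrow-derived macrophages (BMDMs), grown from marrow for 7 to 10 days in medium with L929 cell supernatant. KO cells came from Ezh2 fl/fl; LysM-Cre+/- mice, in which Cre expressed from the lysozyme M locus deletes floxed Ezh2 in myeloid cells, and WT cells from littermate controls. Either genotype was kept for 24 h in complete DMEM (control) or in supernatant of the mouse hepatoma line Hepa1-6 (conditioned medium, CM). There were 4 WT and 3 KO libraries in each medium, and whether those of a group came from separate animals is not stated in the labels. The p-values therefore measure only how far these samples vary, and that variation may be technical. The labels give neither the age of the mice nor the Ezh2 and Cre alleles of the littermates.

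Summed exon counts ran from 40.2 to 85.8 mega-counts (M) per library, and the 78 genes held between 0.158 and 0.176% of them. All 9 macrophage markers were present, while summed markers of T, B, NK, erythroid, fibroblast, endothelial, dendritic and neutrophil cells stayed at 2.49 CPM or less. Hepatoma or hepatocyte markers summed to between 1.61 and 3.03 CPM, and Alb had no count in any library. Nearly all of this sum was Afp, which was present in both media. Its mean was 1.683 CPM in WT control medium and 2.168 CPM in WT CM, and 2.525 and 2.153 CPM in the KO groups. CPM is the count per M of the library total after TMM scaling. Summed macrophage markers were lower in KO (19400 to 22200 CPM) than in WT (29500 to 35900 CPM). Most of this was Lyz2, the lysozyme gene that carries Cre, at 10221 CPM in KO against 21891 CPM in WT control medium. In an exon pair of Ezh2 chosen after its values were seen (81 and 85 bases), the count per base was 2.0 to 30.4% of that in the other exons in KO and 90.1 to 163.1% in WT. WT libraries 3 and 4 of both media stood apart from the other 10 in depth and in how counts spread over exons. The labels name no batch, so this division is inferred, and results that rest on it are given with and without it. In bulk RNA, fewer cells of a type and less RNA per cell cannot be told apart.

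The genes lie on 17 chromosomes, with at most 11 on any of them (chromosome 11). Of the 78, 69 matched the RefSeq promoter table for GRCm38.p6 (the patch release of mm10), with 75 start windows of 300 bases from 250 before to 50 after the start. The 8 letters AAGATGGC, bound by the factor YY1, were found on either strand in 16.0% of these windows, against 2.75% of all 32851 windows and 4.36% of the windows of tested genes. The ETS motif CCGGAAGT, bound by GABP among others, was in 16.0%, against 3.89% and 7.94%. Its shorter core CCGGAAG, which every ETS match also contains, was in 34.7%, against 8.86% and 17.3%. The NRF-1 core GCATGCGC was in 10.7%, against 2.71% and 5.04%. The GC box CCGCCC was in 52.0%, against 35.7% and 60.4%, so it was less frequent than over tested genes. A match describes letters in a window, not a bound site. A neighbouring gene started within 1000 bases in the opposite direction for 26 of the 69 genes (37.7%), against 12.3% of all genes in the table. Those include genes not expressed here, and the share over tested genes was not counted. Mrpl46 and Mrps11 are such a pair, with starts 42 bases apart.

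Windows of 5 genes that lead the responses described below are shown 5′ to 3′ along the gene's strand. Mrpl45 (chr11:97315466-97315765, plus strand) and Mrpl52 (chr14:54426659-54426958, plus strand) moved most with the medium. Mrpl18 (chr17:12916042-12916341, minus strand) moved in both genotypes, Mrpl39 (chr16:84735195-84735494, minus strand) had the smallest p among genes called higher in KO and not in WT, and Mrps18a (chr17:46110754-46111053, plus strand) was called in WT and not in KO. Capitals mark the ETS motif or its core (in Mrpl52, Mrpl18 and Mrps18a), the YY1 letters (in Mrps18a) and the NRF-1 core read on both strands (in Mrpl39). The Mrpl45 window held none of the NRF-1, ETS or YY1 letters, so these letters were not common to the windows of the genes that rose. This window lies inside the gene's span, which begins at 97314923, and the sequence before that position was not searched. The Mrpl18 window likewise lies inside its gene (12911345 to 12917787).
Mrpl45: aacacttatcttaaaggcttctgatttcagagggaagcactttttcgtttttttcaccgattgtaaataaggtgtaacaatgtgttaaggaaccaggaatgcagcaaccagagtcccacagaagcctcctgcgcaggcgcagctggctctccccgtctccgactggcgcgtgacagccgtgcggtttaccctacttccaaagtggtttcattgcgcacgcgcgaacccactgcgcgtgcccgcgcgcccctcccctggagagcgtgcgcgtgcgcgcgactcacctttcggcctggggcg
Mrpl52: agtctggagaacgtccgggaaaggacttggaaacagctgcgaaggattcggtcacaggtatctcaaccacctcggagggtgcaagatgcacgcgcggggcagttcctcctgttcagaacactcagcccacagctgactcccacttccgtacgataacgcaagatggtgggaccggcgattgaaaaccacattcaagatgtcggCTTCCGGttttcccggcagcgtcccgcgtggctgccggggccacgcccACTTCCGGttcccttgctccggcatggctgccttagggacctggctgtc
Mrpl18: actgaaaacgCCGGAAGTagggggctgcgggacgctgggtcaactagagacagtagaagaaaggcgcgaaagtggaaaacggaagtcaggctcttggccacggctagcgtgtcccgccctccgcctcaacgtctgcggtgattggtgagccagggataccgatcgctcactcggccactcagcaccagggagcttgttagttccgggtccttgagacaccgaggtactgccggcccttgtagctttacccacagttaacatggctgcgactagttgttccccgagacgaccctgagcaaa
Mrpl39: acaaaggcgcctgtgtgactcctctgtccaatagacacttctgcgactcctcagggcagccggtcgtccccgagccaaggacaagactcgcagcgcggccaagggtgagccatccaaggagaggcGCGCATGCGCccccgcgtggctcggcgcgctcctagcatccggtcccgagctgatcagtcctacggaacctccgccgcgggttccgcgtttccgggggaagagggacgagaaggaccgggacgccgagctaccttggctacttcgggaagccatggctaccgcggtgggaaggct
Mrps18a: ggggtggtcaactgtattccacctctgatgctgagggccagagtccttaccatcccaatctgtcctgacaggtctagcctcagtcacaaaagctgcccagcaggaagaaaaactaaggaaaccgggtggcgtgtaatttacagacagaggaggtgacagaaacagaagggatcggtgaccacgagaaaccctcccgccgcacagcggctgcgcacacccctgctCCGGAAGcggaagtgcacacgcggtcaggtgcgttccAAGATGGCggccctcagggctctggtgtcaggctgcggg

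Levels were compared between genes per kilobase (kb) of distinct exon. The median of the 78 genes was 13.52 CPM per kb, above the 6.37 CPM per kb of all tested genes. It lay below the medians of nuclear oxidative phosphorylation genes (64.46 CPM per kb) and of cytosolic ribosomal protein genes (559.21 CPM per kb). Although the proteins enter one particle, their transcript levels spanned a wide range. Mrps21 (89.11 CPM per kb), Mrps18c (88.21 CPM per kb) and Mrpl33 (83.53 CPM per kb) were highest. All 3 have bacterial homologs, and Mrps18c is 1 of 3 paralogs of bacterial protein S18. Mrpl17 (2.46 CPM per kb), Mrpl15 (2.79 CPM per kb) and Mrpl41 (3.17 CPM per kb) were lowest. The summed exon length includes alternative ends that may be little used, so the lowest values in particular depend on the annotation. The 3 S18 paralogs differed as well: Mrps18a had 29.74 CPM per kb and Mrps18b 10.09 CPM per kb.

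**Figure D1:**
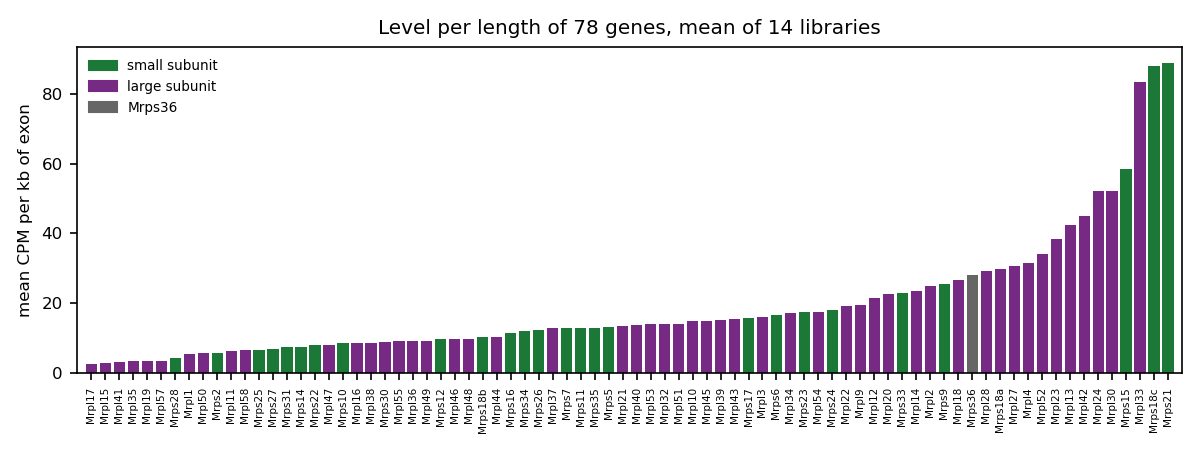
Mean level of each of the 78 genes over 14 libraries, in CPM per kb of distinct exon (bars, sorted), coloured by ribosomal subunit. Levels run from 2.46 (Mrpl17) to 89.11 CPM per kb (Mrps21), and both subunits are found along the range.

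The first comparison asks how WT macrophages responded to hepatoma-conditioned medium. In CM 11 of the 78 genes were called higher and 1 lower, and 66 did not pass. None changed by 1.5-fold, where 2477 of all 13311 tested genes did. Genes were called by edgeR's quasi-likelihood test where the adjusted p was below 0.05. Of all 13311 tested genes, 19.3% were called higher and 18% lower. In this fit the share called higher among the 78 was thus no larger than the background. Changes are given as log2 fold changes ± SE. The median change was 0.13, against -0.01 for all tested genes, and 64 of the 78 values were above 0. Values ran from -0.44 (Mrpl52) to 0.47 (Mrpl45). In 12 genes all CM libraries lay above all control libraries and in 0 all lay below, against 17.6 and 16.2% of tested genes.

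Summed over the 78 genes, the level was 1591.0 ± 46.7 CPM (SD, n = 4) in WT control medium and 1737.4 ± 36 CPM (n = 4) in CM. The control libraries lay between 1543.8 and 1651.7 CPM and the CM libraries between 1700.6 and 1775.9 CPM, without overlap. As a share of unscaled library counts the ranges did overlap. They were 0.158 to 0.169% in control medium (mean 0.162%) and 0.162 to 0.173% in CM (mean 0.167%). Small subunit genes had 4 of 26 called higher and 0 lower (median 0.15), and large subunit genes 7 of 51 higher and 1 lower (median 0.13). Genes with a bacterial homolog had 7 of 46 called higher and 0 lower (median 0.15), and mitochondria-specific genes 4 of 31 higher and 1 lower (median 0.09). With the replicate number as a block, since WT libraries of the same number deviated together, 29 genes were called higher and 1 lower. The same fit called 49.4% of all genes, 25.4% higher and 24.0% lower, against 38.5% of the 78. In that fit the share called higher was larger among the 78 than over all genes, unlike without the block. A term for the inferred division of the libraries gave 27 higher and 1 lower, against 25.3% of all genes higher and 24.0% lower. Scaling by library totals alone left 4 higher and 3 lower, and shifted the median of all genes by -0.08 and that of the 78 by the same -0.08. The calls that this scaling ended were those of Mrps18a (0.15, adjusted p = 0.0598), Mrps15, Mrpl12, Mrps7, Mrpl51, Mrpl34 and Mrps25. With the most-counted exon of each gene in place of the sum, the calls of Mrps12, Mrps15, Mrps7, Mrpl51, Mrpl34 and Mrps25 did not pass.

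Mrpl45 encodes the large subunit protein that anchors the ribosome to the inner mitochondrial membrane, where its products are inserted. It lies on chromosome 11 from 97314923 to 97329920. Its levels were 30.9, 30.7, 29.1 and 27.5 CPM in WT control libraries 1 to 4, and 40.8, 38.8, 41.1 and 42.5 CPM in the CM libraries. The groups did not overlap, and the change was 0.47 ± 0.06 (edgeR adjusted p = 7.67e-06). None of 27 alternative settings ended the call, with values from 0.37 (WT libraries 1 and 2 alone) to 0.57 (libraries 3 and 4 alone). Of its 8 exon entries, 5 were higher in every CM library than in every control library. Exon entries of a gene can overlap and share reads, so here and below they are not separate measurements.

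Mrpl41, a mitochondria-specific large subunit gene (chromosome 2, 24972470 to 24975098), had 6.65, 7.22, 7.11 and 6.80 CPM in control medium. In CM it had 10.0, 8.54, 9.30 and 9.23 CPM. All CM libraries were above all control libraries (0.42 ± 0.09, edgeR adjusted p = 0.0016), and none of the 27 alternatives ended this call. Mrpl18 encodes the homolog of the bacterial protein that contacts 5S ribosomal RNA. Its levels were 21, 21.6, 25.6 and 24.9 CPM in control medium and 28.4, 27.1, 30.2 and 27.8 CPM in CM, again without overlap (0.28 ± 0.08, edgeR adjusted p = 0.00876). The call was lost in WT libraries 3 and 4 alone (0.20, adjusted p = 0.0789). Mrpl18 shares exon sequence on the opposite strand with Tcp1, a chaperonin gene that also rose (0.22, edgeR adjusted p = 0.00409). The strand setting of the counting is not given in the sources used here, so reads of the pair cannot be told apart.

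Mrps12, the homolog of the decoding centre protein S12, had 9.45, 10.5, 10.4 and 10.8 CPM in control medium and 12.4, 13.4, 12.3 and 13.4 CPM in CM. The groups were separate (0.32 ± 0.09, edgeR adjusted p = 0.0102). Mrps18a, the S18 paralog of the large subunit, had 23.5, 23.0, 22.3 and 23.5 CPM against 26.6, 24.4, 29.4 and 28.0 CPM (0.23 ± 0.06, edgeR adjusted p = 0.00864). Mrps12 did not pass in WT libraries 1 and 2 alone (0.36, adjusted p = 0.0508) or 3 and 4 alone (0.28, adjusted p = 0.0932), with 2 libraries a medium. Mrps18a was not called in libraries 1 and 2 alone (0.13, adjusted p = 0.267). The other S18 paralogs did not pass: Mrps18b changed by 0.22 ± 0.11 and Mrps18c by 0.07 ± 0.07.

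Mrpl12, Mrpl10 and Mrpl11 form the stalk and its base, where translation factors bind. Mrpl12 rose from 18.36 ± 2.42 to 22.51 ± 2.11 CPM (n = 4 each; 0.29 ± 0.09, edgeR adjusted p = 0.0174), though control library 2 at 21.8 CPM lay within the CM range of 20.5 to 24.7 CPM. Leaving out WT control library 3 or 4, or CM library 1 or 2, ended the call (adjusted p from 0.0519 to 0.0623), as did a fit of the WT groups alone (0.0583). Mrpl10 (0.12 ± 0.07) and Mrpl11 (0.13 ± 0.09) did not pass. The calls of Mrps7 (0.19), Mrpl51 (0.31), Mrpl34 (0.35) and Mrps25 (0.18) were each ended by leaving out any of 3 to 5 libraries, and that of Mrps15 (0.22 ± 0.06, edgeR adjusted p = 0.0143) by leaving out WT CM library 3 (adjusted p = 0.0501). In WT libraries 1 and 2 alone Mrps15, Mrps7, Mrpl51 and Mrps25 did not pass, and Mrpl34 did not in libraries 3 and 4 alone. Neither Mrpl58 (0.13 ± 0.11), a release factor homolog built into the large subunit, nor Mrps30 (-0.10 ± 0.09) passed, nor did Mrps36 (0.25 ± 0.14). Of the genes at the ends of the level range, Mrps21 changed by 0.26 ± 0.10 (edgeR adjusted p = 0.0532), Mrpl33 by 0.21 ± 0.20, Mrpl15 by 0.22 ± 0.11 and Mrpl17 by 0.08 ± 0.10.

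Mrpl52, a mitochondria-specific large subunit gene on chromosome 14 (54426909 to 54429750), was the only member called lower in WT. Its levels were 14.5, 19.1, 12.8 and 12.5 CPM in control medium and 12.1, 13.6, 8.64 and 9.19 CPM in CM. The ranges overlapped, because libraries 1 and 2 of both media were higher than 3 and 4. The change was -0.44 ± 0.15 (edgeR adjusted p = 0.0297). It was -0.39 (adjusted p = 0.0247) in libraries 1 and 2 alone and -0.50 (adjusted p = 0.000783) in libraries 3 and 4 alone. Leaving out WT control library 2 (-0.29, adjusted p = 0.105), CM library 3 (-0.35, 0.0922) or CM library 4 (-0.37, 0.0876) ended the call, as did a fit of the WT groups alone (-0.44, 0.0844).

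**Figure D2:**
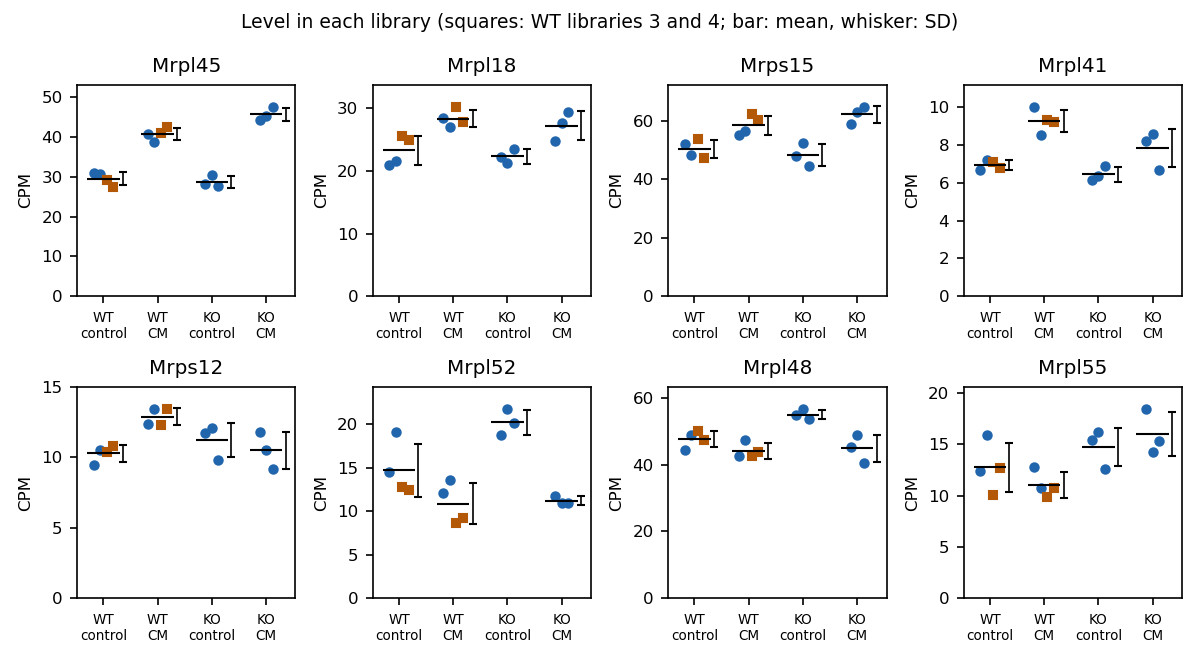
Level of 8 genes in each of the 14 libraries, in CPM on axes that start at 0 (points; squares are WT libraries 3 and 4; horizontal bars are group means and whiskers the SD). Mrpl45 is higher in all CM libraries of both genotypes than in any control library, and Mrpl52 is lower in CM in KO, where the KO control libraries lie at 18.8 to 21.7 CPM and the CM libraries at 10.9 to 11.8 CPM.

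The same question was put to KO macrophages. There 10 of the 78 genes were called higher in CM, 5 lower and 63 not (edgeR), while 20% of all tested genes were called higher and 18.2% lower. The median change was 0.11, against -0.01 for all tested genes, but only 46 of the 78 values were above 0. Values ran from -0.85 (Mrpl52) to 0.67 (Mrpl45). These 2 genes alone changed by 1.5-fold or more, where 2975 of all 13311 tested genes did. In 20 genes all CM libraries lay above all control libraries and in 10 all lay below, against 27.5 and 27.1% of tested genes. The summed level was 1652.4 ± 11.1 CPM (SD, n = 3) in control medium and 1753.1 ± 49.0 CPM (n = 3) in CM. All CM libraries (1698.7 to 1793.5 CPM) lay above all control libraries (1643.0 to 1664.6 CPM). Without TMM scaling this order was not kept. The 78 genes held 0.173 to 0.176% of unscaled counts in control medium (mean 0.174%) and 0.166 to 0.175% in CM (mean 0.171%).

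The number of calls in KO fell when some of the KO libraries were left out. Without KO control library 2, 3 genes were called higher, without KO control library 1, 5 genes, and without KO CM library 2, 6 genes. Lower calls fell to 3 without KO control library 1 or 2 or KO CM library 3. Smaller groups lower such counts by construction. The share of all tested genes called in these fits is not given. Whether the drop was particular to the mitochondrial ribosome genes was therefore not tested. Scaling by library totals alone shifted the median of all genes by -0.11 and gave 2 higher and 10 lower calls, with only Mrpl45 and Mrps15 of the 10 higher calls passing. With the most-counted exon, 12 of the 15 calls did not pass, those of Mrpl45, Mrpl18 and Mrpl52 being the exceptions. Small subunit genes had 3 of 26 called higher and 1 lower, large subunit genes 7 of 51 higher and 4 lower. Genes with a bacterial homolog had 4 of 46 higher and 1 lower (median 0.13), and mitochondria-specific genes 6 of 31 higher and 4 lower (median 0.11).

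Mrpl45 had 28.1, 30.5 and 27.6 CPM in KO control libraries and 44.3, 45.3 and 47.5 CPM in CM. The groups were far apart (0.67 ± 0.07, edgeR adjusted p = 8.22e-07), all 8 exon entries separated the media, and none of 26 alternatives ended the call (0.56 to 0.76). Mrps15, the homolog of bacterial S15 in the small subunit (chromosome 4, 126046928 to 126055536), had 48.0, 52.4 and 44.6 CPM against 59.1, 63.2 and 64.7 CPM. Again no CM library reached down to a control library (0.37 ± 0.07, edgeR adjusted p = 0.00104). With the most-counted exon alone, Mrps15 did not pass (0.27, adjusted p = 0.15). Mrpl39, a mitochondria-specific gene whose protein resembles part of a threonyl-tRNA synthetase, had 23.9, 21.5 and 24.5 CPM in control medium and 29.5, 28.8 and 29.5 CPM in CM (0.33 ± 0.10, edgeR adjusted p = 0.0151). Leaving out KO control library 2 ended that call (0.27, adjusted p = 0.0741), as did the most-counted exon alone (0.26, 0.0969) and library totals (0.22, 0.0766).

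Mrpl18 changed by 0.29 ± 0.09 in KO (edgeR adjusted p = 0.018), close to its value in WT. The call was lost without KO control library 2 (0.25, adjusted p = 0.0752) or KO CM library 3 (0.23, 0.084), and when libraries were scaled by their totals (0.18, 0.106). Mrpl41 was called as well (0.28 ± 0.10, edgeR adjusted p = 0.046), but 18 of 26 alternatives ended it, and KO CM library 3 at 6.69 CPM lay within the control range of 6.13 to 6.86 CPM. Mrpl42 (0.33), Mrps22 (0.33), Mrps33 (0.29), Mrpl3 (0.25) and Mrpl4 (0.24) were the other genes called higher. Each of these 5 calls was ended by leaving out any of 2 to 6 libraries.

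The genes called lower in KO were Mrpl52, Mrpl48, Mrpl43, Mrps34 and Mrpl27. Mrpl52 had 18.8, 21.7 and 20.1 CPM in KO control libraries and 11.8, 10.9 and 10.9 CPM in CM. The media were widely separated (-0.85 ± 0.17, edgeR adjusted p = 0.00105), in all 5 exon entries, and no alternative ended the call. Mrpl48, a mitochondria-specific large subunit gene (chromosome 7, 100545779 to 100608301), had 54.8, 56.5 and 53.6 CPM against 45.2, 48.7 and 40.6 CPM (-0.29 ± 0.07, edgeR adjusted p = 0.00435). With the most-counted exon alone, its change was -0.06 (adjusted p = 0.837), while 7 of its 9 exon entries separated the media.

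Mrpl43 (chromosome 19, 45005014 to 45006442) had 22.4, 21.6 and 20.1 CPM in KO control libraries and 18.1, 17.8 and 17.3 CPM in CM, without overlap (-0.27 ± 0.07, edgeR adjusted p = 0.00986). With its most-counted exon alone the value was -0.18 (adjusted p = 0.0625). Mrps34, a mitochondria-specific gene of the small subunit (chromosome 17, 24895120 to 24896289), had 12.4, 12.3 and 11.3 CPM against 9.59, 9.80 and 8.60 CPM (-0.37 ± 0.12, edgeR adjusted p = 0.0202). Its call was ended by leaving out KO control library 1 or 2 or KO CM library 3 (adjusted p from 0.0606 to 0.0842), and by the most-counted exon alone (-0.29, 0.381). Mrpl27 changed by -0.26 (edgeR adjusted p = 0.0428), and leaving out any of 5 libraries ended its call, as did the most-counted exon alone (-0.09, 0.589) and a fit without a low-count filter (0.0616). Exons of Mrpl48, Mrpl43, Mrps34 and Mrpl27 overlap those of Rab6a, Twnk, Mapk8ip3 and Eme1 on the opposite strand, and those of Mrps34 also overlap Nme3 on its own strand. Reads of these pairs may have been divided between genes, so the values are uncertain. Of the 78 genes, 33 overlap an exon of another gene in GENCODE M21, 8 of them on the same strand.

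A total of 5 genes were called in the same direction in both genotypes: Mrpl45, Mrpl18, Mrpl41, Mrps15 and Mrpl52. They made up 41.7% of the calls in WT and 33.3% of those in KO, where over all genes these shares were 78.3 and 76.5%. Across the 78 genes the WT and KO responses, which share no library, correlated with r = 0.51 (Pearson) and 0.33 (Spearman), against 0.88 and 0.79 across all 13311 genes. Genes are not independent replicates, and most changes of the 78 were small compared with their SE. The sign was the same in 52 of 78 genes. In Mrps12 the WT value of 0.32 stood beside -0.10 ± 0.10 in KO, and in Mrps34 the KO value of -0.37 stood beside 0.10 ± 0.10 in WT.

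**Figure D3:**
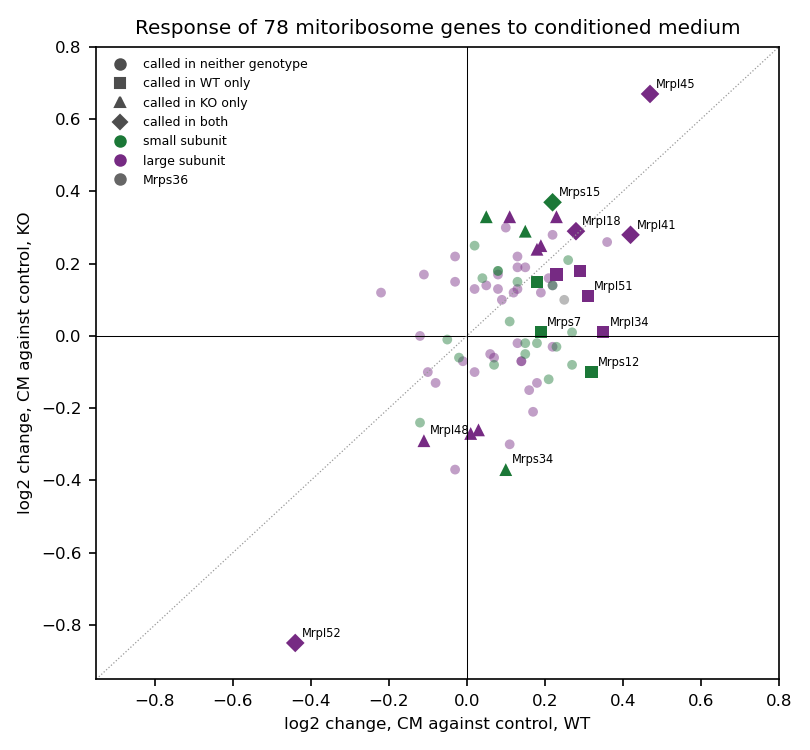
Log2 change in CM against control medium of the 78 genes in WT (x axis) and in KO (y axis), with symbols for genes called in neither, either or both genotypes, colours for the subunit and a dotted line where both changes are equal. Mrpl45 at 0.47 and 0.67 and Mrpl52 at -0.44 and -0.85 lie at the ends, and the other genes form a cloud within 0.42 of 0 on both axes.

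The difference between these responses, the interaction of genotype and medium, was called in 0 of 78 genes (edgeR), and in 0% of all tested genes. At an unadjusted p below 0.05 there were 8 of the 78 (10.3%, against 7.89% of all genes), and DESeq2 and limma-voom each called 0 (0.631 and 0.203% of all genes). The smallest adjusted p was 0.42, for Mrps34 (-0.46 ± 0.15) and Mrps12 (-0.42 ± 0.14), both negative because the KO response lay below the WT response. Values ran up to 0.33 ± 0.20 (Mrpl55), and Mrpl45 had 0.20 ± 0.09 (adjusted p = 0.575). A different response in KO was therefore not shown for any of these genes. For a difference of 1.5-fold, the fit recovered 56% of changed genes in simulated data, so smaller differences could go undetected.

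The genotypes were then compared within each medium, to see whether loss of Ezh2 changed these genes. In control medium 0 of 78 genes were called (edgeR), where 5.32% of all tested genes were. At an unadjusted p below 0.05 there were 11 (14.1%, against 25.6% of all genes). DESeq2 called 7 (8.97%, against 11.3%) and limma-voom with quality weights 23 (29.5%, against 35.7%). The median was 0.02, with values from -0.29 to 0.75. The smallest adjusted p was that of Mrps24, at 16.0, 20.0, 15.6 and 15 CPM in WT and 23.7, 20.7 and 19.8 CPM in KO (0.37 ± 0.10, edgeR adjusted p = 0.0504). WT library 2 lay within the KO range. Mrpl43 (0.24 ± 0.07, edgeR adjusted p = 0.0533) and Mrpl39 (-0.29 ± 0.09, 0.073) came next among the genes already named, with Mrpl48 at 0.21 ± 0.07 (0.081) and Mrpl52 at 0.46 ± 0.16 (0.0951). Leaving out WT control library 2 gave 4 genes called higher and 1 lower, leaving out WT control library 1 gave 1 each way, and leaving out WT CM library 1 gave 1 lower. With WT libraries 1 and 2 alone, 0 were called.

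The value of 0.75 belonged to Mrpl14, the homolog of bacterial L14 at the interface of the subunits, and it did not pass (SE 0.30, edgeR adjusted p = 0.141). Its levels were 14.4 and 16.5 CPM in WT control libraries 1 and 2, 7.63 and 8.11 CPM in libraries 3 and 4, and 19.6, 20.2 and 18.4 CPM in KO. The distance between the WT library pairs was thus larger than that between WT libraries 1 and 2 and KO.

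In CM the only call was Mrpl55, a mitochondria-specific large subunit gene (chromosome 11, 59202486 to 59206138), where 4.59% of all tested genes were called. Its levels were 12.8, 10.7, 9.89 and 10.7 CPM in WT and 18.4, 14.3 and 15.3 CPM in KO. All KO libraries were above all WT libraries (0.54 ± 0.14, edgeR adjusted p = 0.0436). The call was ended by 14 of 26 alternatives, among them WT libraries 1 and 2 alone (0.45, adjusted p = 0.102), a term for the inferred batch (0.41, 0.068) and leaving out any of 10 libraries, each KO CM library included. In control medium Mrpl55 had 0.21 ± 0.14 (edgeR adjusted p = 0.365). At an unadjusted p below 0.05 there were 12 of the 78 in CM (15.4%, against 23.4% of all genes). DESeq2 called 4 (5.13%, against 9.21%) and limma-voom 6 (7.69%, against 13.5%).

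**Figure D4:**
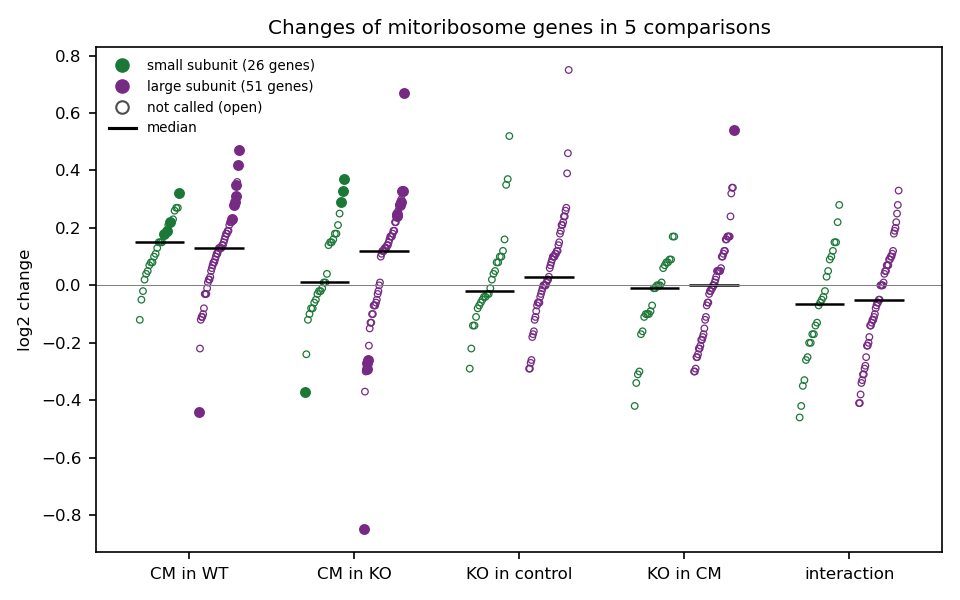
Log2 change of each small subunit gene (green) and large subunit gene (purple) in the 5 comparisons, ordered by value, with filled circles for called genes and bars for medians (Mrps36 is left out). Calls are nearly all in the responses to CM, and the small and large subunit medians in WT are 0.15 and 0.13.

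WT libraries 3 and 4 differed from 1 and 2 in 18 of the 78 genes without overlap (23.1%, 6 higher and 12 lower), against 21.1% of all tested genes. Differences ran from -1.03 (Mrpl14) to 0.43 (Mrps36). Mrpl14, Mrpl23 (-0.76) and Mrpl33 (-0.72) differed by 1.5-fold or more (3.85% of the 78, against 4.88% of all tested genes). None of these 3 was called for CM in WT. In 42 genes the difference between library pairs was larger than the change with CM in WT. How often this held over all tested genes was not counted. In Mrpl33 the control libraries had 41.0, 41.5, 23.4 and 22.9 CPM and the CM libraries 48.0, 42.1, 29.2 and 29.6 CPM, so that the library pairs stood further apart than the media.

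The difference of libraries 3 and 4 was uneven over the exon entries of some genes. Of 440 exon entries of the 78 genes with 0.5 CPM or more, 29 in 20 genes had under 0.5 times the level in libraries 3 and 4 that they had in 1 and 2, and 2 had over 2 times. Exon entries of other genes were not counted in this way, so these numbers have no background and may not be particular to the 78. In Mrpl52 the exon at the gene's start (chromosome 14, 54426909 to 54426960, 52 bases) had 0.201 CPM against 1.747 CPM, a ratio of 0.115. The highest ratio among its entries was 0.998. In Mrpl14 the ratios of the entries lay between 0.179 and 0.723. Mrpl45 had ratios between 0.714 and 1.34. A trend of the ratio with position was not tested. KO libraries had the profile of WT libraries 1 and 2 in Mrpl52, with 1.746 CPM in the exon at the start. In Mrpl52 the change with CM was therefore read within each library pair, as given above, and in KO, where all 5 entries separated the media.

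**Figure D5:**
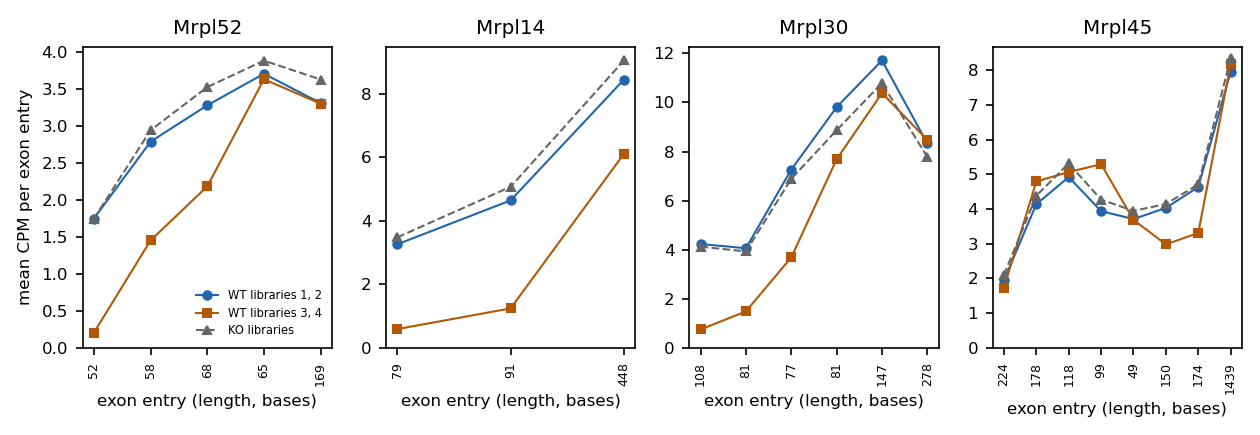
Mean CPM of each exon entry of 4 genes in WT libraries 1 and 2 (circles), WT libraries 3 and 4 (squares) and KO libraries (triangles). Entries on the x axis keep the order of the deposited counts, which need not follow position, and are labelled by length in bases. In Mrpl52 the entry at the gene's start has 1.747 CPM in WT libraries 1 and 2 and 0.201 CPM in libraries 3 and 4. The highest ratio among its entries is 0.998.

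Other genes of mitochondrial translation were read from lists, beside a background of 37.3% of all tested genes called in WT and 38.1% in KO. Of 5 mitoribosome proteins with other symbols, 2 were called higher with CM in WT: Dap3, the GTP-binding protein of the small subunit (0.25 ± 0.07, edgeR adjusted p = 0.0102), and Aurkaip1, another small subunit protein (0.26 ± 0.07, adjusted p = 0.00717). In KO, Dap3 alone was called (0.31 ± 0.08, edgeR adjusted p = 0.00653). Assembly factors went both ways, with 1 of 25 higher and 2 lower in WT and 1 higher and 3 lower in KO (WT median -0.05). Mpv17l2, an assembly factor of the inner membrane, rose in WT (0.54 ± 0.14, edgeR adjusted p = 0.00503). Mrm1, which methylates the large ribosomal RNA, changed by -0.39 ± 0.11 (adjusted p = 0.00956) and Rbfa, a small subunit maturation factor, by -0.34 ± 0.11 (adjusted p = 0.02).

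Of 15 translation factors 2 were higher and 1 lower in WT, and 1 each way in KO. The elongation factor gene Gfm1 changed by 0.24 ± 0.07 (edgeR adjusted p = 0.0185) and the recycling factor gene Gfm2 by -0.16 ± 0.04 (adjusted p = 0.00923) in WT. Of 17 mitochondrial tRNA synthetases, Nars2 alone was called in WT (0.43 ± 0.15, edgeR adjusted p = 0.0307) and Sars2 alone in KO (-0.46 ± 0.11, 0.00355). Of 16 genes of mitochondrial transcription, RNA processing and DNA replication, 1 was higher and 2 lower in both genotypes. Hsd17b10, a subunit of mitochondrial RNase P, changed by 0.43 ± 0.07 in WT. The DNA polymerase gene Polg changed by -0.66 ± 0.09 there and the RNA-binding protein gene Grsf1 by -0.30 ± 0.06. Of 8 tested regulators of mitochondrial biogenesis, Ppargc1b, a coactivator gene, was the only call, with a change of 0.93 ± 0.13 (edgeR adjusted p = 2.32e-05) for WT cells and of 1.18 ± 0.15 (adjusted p = 1.21e-05) for KO cells.

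In the same WT comparison 36 of 82 nuclear oxidative phosphorylation genes (median 0.25) and 41 of 84 cytosolic ribosomal protein genes (median 0.27) were called higher and 0 lower. In KO these counts were 16 higher and 1 lower, and 14 higher and 0 lower. Proliferation markers moved with CM as well, with 9 of 12 higher and 1 lower in either genotype. Their part in the values of the 78 genes was not tested. Of the 26 members with a neighbour that starts in the opposite direction, 3 were called together with it for CM in WT (Mrpl18 with Tcp1, Mrpl51 with Ncapd2 and Mrps7 with Gga3). In KO this was so for 2, of which Mrpl27 and its neighbour Eme1 went in opposite directions (-0.26 and 0.66). The share of such pairs over all genes was not counted, so these numbers have no background beside them. Exons of Mrps7 and Gga3 overlap on opposite strands, as those of Mrpl18 and Tcp1 do, so reads may be shared.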

How the data were processed

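RNA-seq counts of 14 BMDM libraries in 4 groups were deposited by the authors as raw counts per exon of transcript models. Libraries came from a stranded mRNA kit with paired reads of 150 bases, per the labels' protocols. Per the submitters' processing notes, HISAT2 was used with mm10; the versions, counter, annotation and strand setting are not given in the sources used here.

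Of 427386 exon rows, 196941 repeated another row of the same gene (48.6% of counts) and were removed, and the remaining 230445 were summed per symbol. 0 rows named no gene. Fragments that cross exons may be counted more often, so counts are not fragments. Entries kept for a gene can also overlap, so some reads are counted in more than 1 entry. The test was that of edgeR 4.0.16 under R 4.3.3 (TMM factors, filterByExpr, quasi-likelihood F test, 1 fit of 4 group means over all 14 libraries), with Benjamini-Hochberg adjustment over 13311 genes in each comparison. DESeq2 1.42.0 and limma 3.58.1 (voom with quality weights) were alternatives, beside other scalings, filters, exon choices, thresholds, library subsets and leaving out each library. On simulated data with changed genes the fit recovered 95% of 2-fold and 72% of 1.5-fold changes for CM in WT (13215 genes), 93 and 77% for CM in KO (13202), 98 and 70% for KO in control medium (13191), 96 and 71% for KO in CM (13213), and 80 and 56% for the interaction (13217).

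The members, lists, comparisons and alternatives were chosen with earlier results of these data known. Named with values are, in each comparison, the 4 called members with the smallest p in each direction, the 3 highest and 3 lowest levels per kb, and members with set roles: stalk, decoding centre, membrane anchor, S18 paralogs, Mrps30, Mrps36 and Mrpl58. Of the context lists, up to 3 genes with the smallest p in WT are named. Other genes named were chosen after their values were seen. Replicate numbers come from the labels. Same-numbered libraries of both media deviated from their group means together in WT (r = 0.33, 0.35, 0.47 and 0.46) and not in KO (0, -0.04 and 0.05). In WT, crossed numbers within libraries 1 and 2 (0.31 and 0.35) and within 3 and 4 (0.46 and 0.37) did so too. Positions and promoters are RefSeq's for GRCm38.p6 and overlaps are from GENCODE M21. Exon positions were read from GENCODE M21 by length, where a single exon of the gene had that length.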

Additional observations from a re-analysis of the deposited data

Results flagged for a closer look

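Of 48 groups of 4 WT libraries checked over the 24 members named by rule, 1 held a library far from the others. Mrps18b, a small subunit paralog of bacterial S18, had 20.5 CPM in WT CM library 1 and 17.4, 16.8 and 17.2 CPM in libraries 2 to 4. The gap to the nearest library was 0.845 of the group's range and above the critical value of Dixon's test for 4 values. By chance about 1 in 20 such groups exceed the limit.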

How the results depend on the processing

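Counts are of the 78 genes, higher and lower. Over all 13311 tested genes many settings moved the calls as well. For CM in WT the replicate block called 25.4% of them higher, the batch term 25.3% and voom 21.6%. Library totals called 1957 higher and 3501 lower. For CM in KO the batch term called 25.7% higher and 24.5% lower, voom 23.7% higher and the block 24.3% lower. Library totals called 1941 higher and 3624 lower there. For CM in WT (11 and 1) the replicate block gave 29 higher, the batch term 27, voom 19, the most-counted exon and WT libraries 1 and 2 alone 7 each, library totals 4 higher and 3 lower, an adjusted p below 0.01 4 and 0, a 1.5-fold minimum 0 and 0, and the compared groups alone 0 lower. For CM in KO (10 and 5) library totals gave 2 and 10, the most-counted exon 5 and 1, the batch term 20 and 8, voom 18 higher, the replicate block 8 lower, an adjusted p below 0.01 2 and 3, and a 1.5-fold minimum 1 and 1. For KO in control medium (0 and 0) library totals gave 3 higher, a minimum mean of 4 CPM 2, the replicate block 1, voom 15 and 8, and DESeq2 5 and 2. The replicate block was not the same throughout. In the CM comparisons it was the replicate number within a genotype. In the genotype comparisons it was the number across genotypes, which the labels do not link. For KO in CM (1 and 0) all exon entries, the most-counted exon, the batch term, WT libraries 1 and 2 alone, an adjusted p below 0.01 and a 1.5-fold minimum gave 0 higher, voom 2 and 4, and DESeq2 3 lower. Leaving out each library gave 9 to 14 higher and 0 to 1 lower (CM in WT), 3 to 11 and 3 to 6 (CM in KO), 0 to 4 and 0 to 1 (KO in control medium), 0 to 1 and 0 to 1 (KO in CM), and 0 and 0 (interaction). Stricter thresholds and smaller groups lower the counts by construction; for the other settings the cause was not tested. Over all tested genes, voom called 18.3% higher and 17.4% lower for KO in control medium, and DESeq2 5.32 and 5.96%. For KO in CM voom called 7.82% higher and 5.66% lower, and DESeq2 3.73% lower. Shares of all genes are not given for exon choices, library subsets and left-out libraries. The interaction had 0 calls among the 78 under every setting run. WT libraries 3 and 4 alone were run for CM in WT only, and the fit of compared groups was not run for the interaction. The lowest count of any member in a library was 117 (Mrps28), and the others had 264 or more. With 3 or 4 libraries a group, changes below 1.5-fold were detected in part only.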
